A study of Oryza sativa Japonica Group with 8 samples.

Results

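The 7 genes described here encode enzymes of the phenylpropanoid and lignin pathway in rice leaves. They are 5 phenylalanine ammonia-lyase (PAL) genes (Os02g0626100, Os02g0626400, Os02g0627100, Os04g0518400 and Os05g0427400), the 4-coumarate:CoA ligase gene *4CL3* (Os02g0177600) and the cinnamyl alcohol dehydrogenase gene *CAD2* (Os02g0187800). They were chosen by gene identifier from the 37869 genes of the deposited table, with no threshold on their values, and all 7 passed the filter on low counts.

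Leaf mRNA was sequenced in 4 groups of 4-week-old, untreated plants, with 2 libraries per group. *OsGRP3* OE plants overexpressed *OsGRP3*, a glycine-rich RNA-binding protein gene, and were compared with non-transgenic (NT) plants of their cultivar, Nakdong. *OsGRP3* KD plants, in which *OsGRP3* was knocked down, were compared with NT plants of their cultivar, Dongjin. The overexpression construct carried the coding sequence of *OsGRP3* from cultivar Nipponbare under the constitutive *OsCc1* promoter, and the knock-down construct an inverted repeat of a 3′ UTR fragment of *OsGRP3* under the *OsGOS2* promoter. Which of the transgenic lines gave these libraries is not given in the sources used here. The labels do not say whether replicates came from separate plants, so the p-values measure only the spread between these libraries.

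In plants, PAL removes ammonia from phenylalanine and gives cinnamic acid, the entry step of the phenylpropanoid pathway. After a hydroxylation, 4-coumarate:CoA ligase (4CL) activates the product as a CoA thioester, which goes either towards lignin or towards flavonoids. On the lignin side, cinnamoyl-CoA reductase (CCR) and cinnamyl alcohol dehydrogenase (CAD) reduce the thioesters to monolignols, and laccases and peroxidases link these in the cell wall. In leaves, lignin is laid down mostly in the xylem and in the fibres beside the veins. *4CL3* is regarded as the main lignin 4CL of rice, and *CAD2*, known from the *gold hull and internode2* mutant, as a main lignin CAD.

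The pattern shared by most of these genes lay in the NT Dongjin libraries. In TPM (a level scaled to transcript length and library size), 5 of the 7 genes (4 of the PAL genes and *CAD2*) had a lower level in both NT Dongjin libraries than in each of the other 6 libraries. In CPM (counts scaled to library size) *4CL3* did so too, by little, which made 6 of 7 genes, against 36.3% of all 24383 genes tested. Os05g0427400 had a higher level there than in each of the others on both scales, as did 32.1% of all genes. *4CL3* was highest in *OsGRP3* KD plants. At a 2-fold change with an adjusted p under 0.05, none of the 7 genes differed between *OsGRP3* OE and NT Nakdong plants, where 1.47% of all genes did. Between *OsGRP3* KD and NT Dongjin plants 6 of them did, against 37.6% of all genes.

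The NT Dongjin libraries stood apart from the other 6 libraries across the whole table. The total count lay between 25836946 and 38940899, and 11070 to 11903 genes had no count in the 6 other libraries, against 13721 and 13166 in the NT Dongjin libraries. Coverage of the first exon was divided by that of the last exon in 5735 genes, and the median of this ratio on the log2 scale lay between -2.62 and -2.24 in the 6 other libraries. It was -0.76 and -0.69 in the NT Dongjin libraries, so that their reads were spread more evenly along transcripts. Replicates differed by more than sampling noise in every group, where chi-square over its degrees of freedom ran from 4.02 (NT Dongjin) up to 25.4 (*OsGRP3* OE). Whatever sets the NT Dongjin libraries apart cannot be told apart from the knock-down in this design, since they are the only controls of that cultivar.

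The targeted gene itself, *OsGRP3* (Os03g0670700, chromosome 3, 26460057 to 26461156, plus strand; all coordinates are those of IRGSP-1.0), had 2047 and 2736 TPM in *OsGRP3* OE libraries and 1774 and 1687 TPM in NT Nakdong libraries. Its log2 fold change was 0.51 (SE 0.115, adjusted p = 0.0666 by edgeR). It had 497 and 428 TPM in *OsGRP3* KD libraries and 722 and 711 TPM in NT Dongjin libraries, with a log2 fold change of -0.26 (SE 0.115, adjusted p = 0.0761). Libraries did not overlap in either comparison and lay in the labelled direction, but neither change passed the test. Over 12 alternatives other than leaving out a library, the adjusted p was under 0.05 in 2 for *OsGRP3* OE (0.0001122 to 0.646, DESeq2 the lowest) and in 4 for *OsGRP3* KD (0.0109 to 0.938). Leaving out a library gave 1 of 4 for *OsGRP3* OE (0.00588, without its first library) and 0 of 4 for *OsGRP3* KD. Whether reads of the transgenes entered these values was not tested.

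*The PAL genes.* Os02g0626100 was the PAL gene with the highest level in the 6 libraries other than NT Dongjin. It lies on chromosome 2 (24973448 to 24977287, minus strand) and has 2 exons. It had 141 and 161 TPM in *OsGRP3* OE libraries, against 160.2 and 176 TPM in NT Nakdong libraries. It had 203 and 177 TPM in *OsGRP3* KD libraries, against 35.5 and 35.8 TPM in NT Dongjin libraries. The *OsGRP3* OE and NT Nakdong libraries overlapped, whereas both *OsGRP3* KD libraries were far above both NT Dongjin libraries.

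Os02g0626400 lies on the same strand at 24985256 to 24989388. It had 96.8 and 133 TPM in *OsGRP3* OE libraries, against 126 and 141 TPM in NT Nakdong libraries. It had 164 and 128.5 TPM in *OsGRP3* KD libraries, against 54.0 and 46.7 TPM in NT Dongjin libraries. The low first *OsGRP3* OE value was seen in TPM and FPKM (86.0 against 117.7 FPKM in the second library) but not in the counts of this gene, which were 6590 and 6345 in these libraries. In that library StringTie had given 78.0 TPM to transcript Os02t0626400-01 and 11.9 TPM to Os02t0626400-02, while in the second *OsGRP3* OE library the same transcripts had 8.38 and 125 TPM. Transcript Os02t0626400-03 likewise had 39.03 TPM in the first NT Dongjin library and was near 0 in the second. Because transcripts of a gene differ in length, levels of this gene are best read from its counts.

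Os02g0627100 lies further along the same strand of chromosome 2, at 25006495 to 25009018. It had 9.17 and 12.6 TPM in *OsGRP3* OE libraries, against 13.55 and 15.8 TPM in NT Nakdong libraries. It had 12.1 and 11.3 TPM in *OsGRP3* KD libraries, against 4.59 and 4.20 TPM in NT Dongjin libraries. Both *OsGRP3* OE libraries were thus below both NT Nakdong libraries, and NT Dongjin was again the lowest group. These 3 genes and a further PAL gene, Os02g0626600, which had at most 0.305 TPM in any library, lie close together on chromosome 2 within the span from 24973448 to 25009018. Copies of a tandem family are alike in sequence, so how reads were split between them is uncertain.

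Os04g0518400 (chromosome 4, 25927077 to 25929716, minus strand) had 2.94 and 2.25 TPM in *OsGRP3* OE libraries, against 3.75 and 3.67 TPM in NT Nakdong libraries. It had 5.415 and 5.47 TPM in *OsGRP3* KD libraries, against 1.67 and 1.304 TPM in NT Dongjin libraries. Among the 7 genes this was the only case in which no neighbouring pair of groups overlapped, in the order *OsGRP3* KD, NT Nakdong, *OsGRP3* OE, NT Dongjin. The share of all genes with the 4 groups apart in this way was not computed, so the order is given as a description only. The gene rests on few reads, 146 to 383 counts in the other 6 libraries and 83 and 84 counts in NT Dongjin.

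Os05g0427400 (chromosome 5, 20953643 to 20955793, minus strand) is annotated with a single exon and had the lowest level of the 7 genes in the 6 libraries other than NT Dongjin. It had 1.34 and 0.461 TPM in *OsGRP3* OE libraries, against 1.185 and 2.14 TPM in NT Nakdong libraries. It had 0.948 and 1.09 TPM in *OsGRP3* KD libraries, against 5.07 and 4.41 TPM in NT Dongjin libraries. Unlike the other 4 PAL genes, it had its highest level in NT Dongjin plants. Replicates differed widely in both Nakdong groups, with 81 and 26 counts in *OsGRP3* OE and 70 and 162 counts in NT Nakdong libraries.

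*4CL3 and CAD2.* *4CL3* (chromosome 2, 4280502 to 4285929, plus strand, 6 exons) had 66.2 and 55.7 TPM in *OsGRP3* OE libraries, against 55.3 and 63.1 TPM in NT Nakdong libraries. It had 97.2 and 79.5 TPM in *OsGRP3* KD libraries, against 64.45 and 64.35 TPM in NT Dongjin libraries. It was the most even of the 7 genes, with a highest library 1.76 times the lowest, both in TPM, and NT Dongjin lay within the range of the Nakdong groups. In CPM, which is not scaled to transcript length, NT Dongjin libraries were lowest at 95.4 and 96.1, just under the lowest NT Nakdong library at 101.6. *CAD2* (chromosome 2, 4870151 to 4874038, minus strand, 4 exons) had 44.6 and 34.8 TPM in *OsGRP3* OE libraries, against 42.9 and 48.6 TPM in NT Nakdong libraries. It had 77.2 and 58.1 TPM in *OsGRP3* KD libraries, against 13.1 and 13.8 TPM in NT Dongjin libraries. In every library more of the *CAD2* level was given to transcript Os02t0187800-02 (7.81 to 57.8 TPM) than to Os02t0187800-01 (4.78 to 19.4 TPM).

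Ordered by mean TPM from high to low, Os02g0626100, Os02g0626400 and *CAD2* ran *OsGRP3* KD, NT Nakdong, *OsGRP3* OE, NT Dongjin. In all 3 genes NT Nakdong and *OsGRP3* OE libraries overlapped, and in Os02g0626400 those of *OsGRP3* KD and NT Nakdong did as well. Os02g0627100 ran NT Nakdong, *OsGRP3* KD, *OsGRP3* OE, NT Dongjin, with overlap between *OsGRP3* KD and *OsGRP3* OE. *4CL3* ran *OsGRP3* KD, NT Dongjin, *OsGRP3* OE, NT Nakdong, and only *OsGRP3* KD stood clear of its neighbour. Os05g0427400 ran NT Dongjin, NT Nakdong, *OsGRP3* KD, *OsGRP3* OE, with overlap between *OsGRP3* KD and *OsGRP3* OE.

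**Figure D1:**
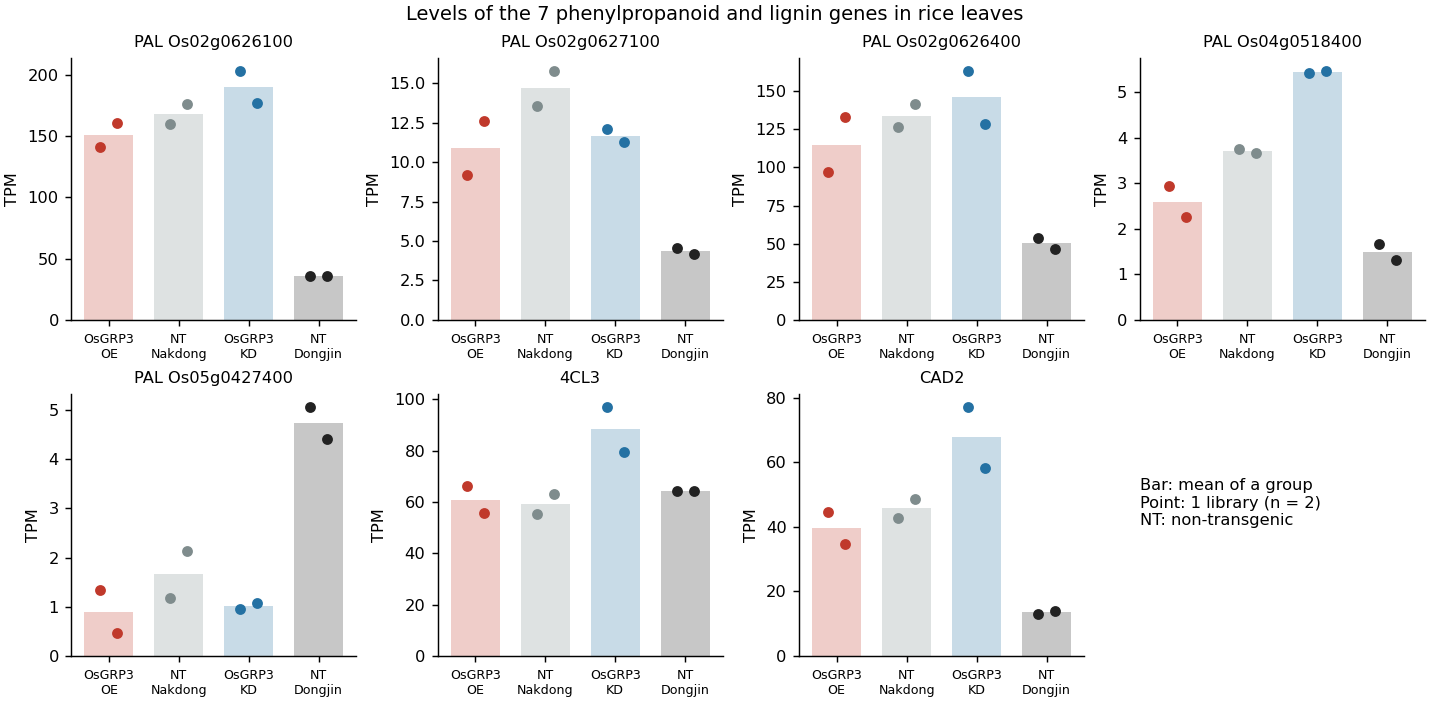
TPM of each of the 7 genes (y axis, linear from 0) in *OsGRP3* OE, NT Nakdong, *OsGRP3* KD and NT Dongjin plants (x axis), where points are libraries and bars the mean of 2 libraries. *CAD2* and the PAL genes other than Os05g0427400 are lowest in NT Dongjin, Os05g0427400 is highest there at 5.07 and 4.41 TPM, and *4CL3* is highest in *OsGRP3* KD plants at 97.2 and 79.5 TPM.

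*OsGRP3 OE against NT Nakdong.* Overexpression of *OsGRP3* was compared with the NT plants of the same cultivar. A gene was called when it changed at least 2-fold and its p, adjusted over all 24383 genes tested after Benjamini and Hochberg, was under 0.05 by edgeR's quasi-likelihood test. None of the 7 genes was called in this comparison, in which 1.47% of all genes tested were called. DESeq2 and limma called none of them either. At an unadjusted p under 0.05, 1 of the 7 genes passed, and 14.1% of all genes did.

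Among the PAL genes, Os02g0626100 averaged 355 ± 19.9 CPM in *OsGRP3* OE and 378 ± 27.2 CPM in NT Nakdong plants (SD, n = 2 each). Its log2 fold change was -0.09, with a 95% interval from -0.28 to 0.10. Os02g0626400 averaged 229 ± 1.71 CPM in *OsGRP3* OE and 227 ± 19.4 CPM in NT Nakdong plants, with an interval of the log2 fold change from -0.21 to 0.23. For these abundant PAL genes the intervals leave out a 2-fold change in either direction.

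Os02g0627100 was the gene that passed at the unadjusted threshold, with 24.6 ± 4.57 CPM in *OsGRP3* OE and 31.9 ± 3.59 CPM in NT Nakdong plants. Its log2 fold change was -0.37 (SE 0.141, adjusted p = 0.267 by edgeR). Os04g0518400 had a log2 fold change of -0.44 (SE 0.193, adjusted p = 0.357). In both genes the *OsGRP3* OE libraries lay below the NT Nakdong libraries in CPM, as was the case for 23.8% of all genes tested. Os05g0427400 had a log2 fold change of -0.80, and its interval ran from -1.85 to 0.26. Its replicates spread as much in *OsGRP3* OE (SD 1.31 CPM) as in NT Nakdong plants (SD 1.32 CPM, n = 2 each). Its value was -1.79 without the first and -0.23 without the second *OsGRP3* OE library, and -0.31 without the second NT Nakdong library (adjusted p between 0.0811 and 0.922 when a library was left out).

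*4CL3* had a log2 fold change of 0.11, with an interval from -0.16 to 0.38. *CAD2* had one of -0.11, with an interval from -0.47 to 0.25. In both genes *OsGRP3* OE and NT Nakdong libraries overlapped, and the sign turned round when single *OsGRP3* OE libraries were left out.

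*OsGRP3 KD against NT Dongjin.* The knock-down was compared with NT plants of its own cultivar. PAL genes Os02g0626100, Os02g0626400, Os02g0627100 and Os04g0518400 and *CAD2* rose, by 3.39-fold to 6.81-fold. Os05g0427400 fell by 1.85 on the log2 scale. Of all genes tested, 37.6% were called in this comparison, 23.8% higher and 13.8% lower, so that calls were common throughout the table. In CPM, 6 of the 7 genes lay higher in both *OsGRP3* KD libraries than in both NT Dongjin libraries, as did 45.4% of all genes, and 1 lay lower, as did 37.3%.

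Os02g0626100 averaged 440.0 ± 17.5 CPM in *OsGRP3* KD and 64.6 ± 1.21 CPM in NT Dongjin plants (SD, n = 2 each). Its log2 fold change was 2.77 (SE 0.0910, adjusted p = 1.341e-07 by edgeR). Os02g0626400 rose by 1.92, Os02g0627100 by 1.76 and Os04g0518400 by 2.22 on the log2 scale, with adjusted p-values between 9.378e-07 and 2.05e-05. *CAD2* averaged 73.5 ± 10.2 CPM in *OsGRP3* KD and 11.9 ± 0.417 CPM in NT Dongjin plants, a log2 fold change of 2.63 (SE 0.169, adjusted p = 2.536e-06). These 5 genes and Os05g0427400 were called in every alternative that was run, leaving out each library included.

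Os05g0427400 averaged 2.06 ± 0.336 CPM in *OsGRP3* KD and 7.42 ± 0.678 CPM in NT Dongjin plants, with a log2 fold change of -1.85 (SE 0.457, adjusted p = 0.00687). *4CL3* averaged 167 ± 13.5 CPM in *OsGRP3* KD and 95.8 ± 0.488 CPM in NT Dongjin plants. Its log2 fold change of 0.80 (SE 0.121, adjusted p = 0.000399) was under 2-fold, so *4CL3* was not called. With counts of the last exon alone it was 1.14 (adjusted p = 0.001704) and past the threshold, and with counts of the first exon alone 0.41 (adjusted p = 0.0764). Over the alternatives other than leaving out a library, its adjusted p was between 7.084e-09 and 0.0764.

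**Figure D2:**
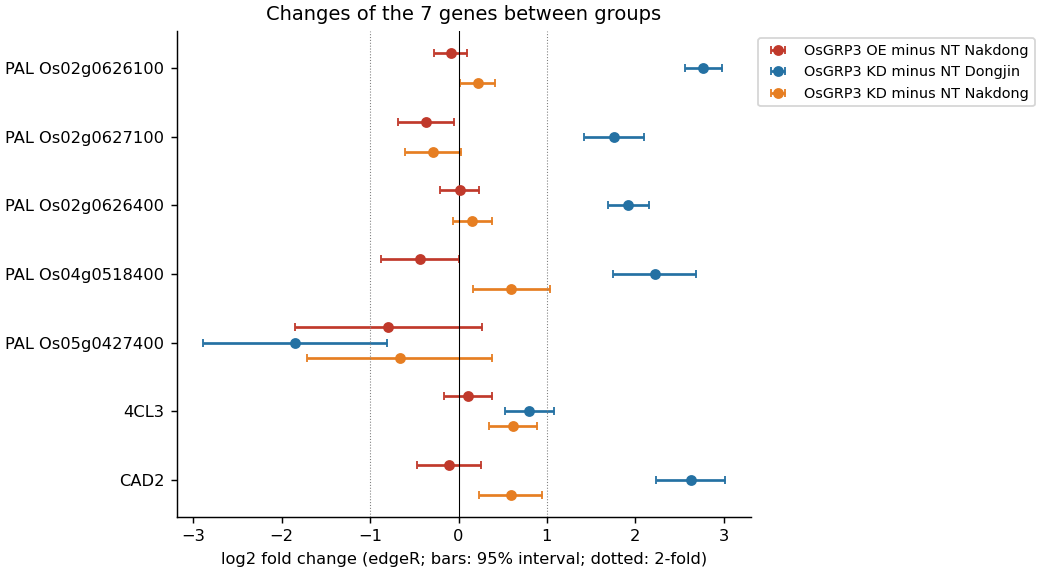
Log2 fold change by edgeR (x axis, with its 95% interval; dotted lines mark 2-fold) of each of the 7 genes (y axis) in *OsGRP3* OE minus NT Nakdong, *OsGRP3* KD minus NT Dongjin and *OsGRP3* KD minus NT Nakdong. Against NT Dongjin, *OsGRP3* KD values run from -1.85 to 2.77, while against NT Nakdong all values of *OsGRP3* OE and *OsGRP3* KD lie between -0.80 and 0.61.

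Because NT Dongjin stood apart, the change was also read at each end of the transcripts. Coverage was scaled to library size, and the 6 genes with more than 1 exon were used. In the last exon, the log2 ratio of mean coverage in *OsGRP3* KD over NT Dongjin libraries was between 1.72 (*4CL3*) and 2.95 (*CAD2*). In the first exon it was lower for each of the 6 genes. It was 2.23 in the first and 2.88 in the last exon of Os02g0626100, and 0.66 and 1.90 in those of Os02g0627100. For *4CL3* it was -0.09 in the first and 1.72 in the last exon.

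The same difference between ends was seen in the shape of coverage within a library. For *4CL3*, the first exon had 0.251 and 0.173 times the coverage of the last exon in *OsGRP3* KD and 0.729 and 0.751 times in NT Dongjin libraries. For *CAD2* this ratio was 0.485 and 0.440 in *OsGRP3* KD and 1.04 and 1.11 in NT Dongjin libraries. The part of this evenness of coverage in the changes of the 7 genes was not tested beyond these values. When all genes were counted by the first exon alone and normalized anew, Os02g0626100 kept a log2 fold change of 2.71 and *CAD2* one of 2.28. Os02g0626400 had 2.47, Os04g0518400 1.98, Os02g0627100 1.15, *4CL3* 0.41 and Os05g0427400 -1.34 in that setting. These counts sum the first exon of each transcript, so the 2.47 of Os02g0626400 depends on how reads were split between its transcripts. On the first exon of its longest transcript, the log2 coverage ratio of *OsGRP3* KD over NT Dongjin was 0.86. Os05g0427400 has a single exon, so its own counts did not change in that setting and only the fit over all genes was new.

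**Figure D3:**
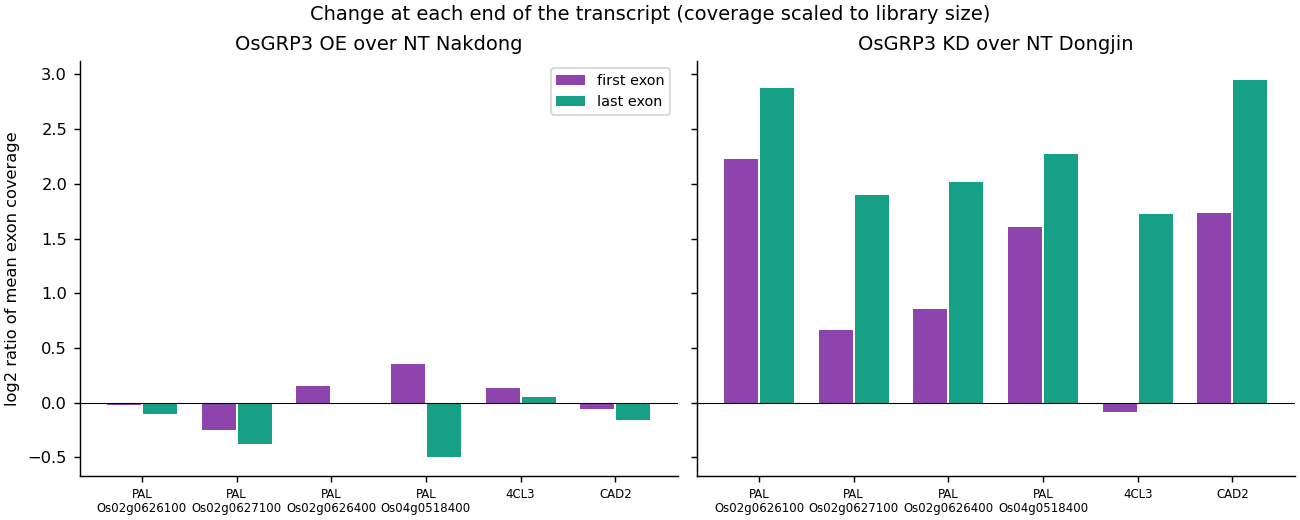
Log2 ratio of mean exon coverage, scaled to library size (y axis), in the first and the last exon of the 6 genes with more than 1 exon (x axis), for *OsGRP3* OE over NT Nakdong (left) and *OsGRP3* KD over NT Dongjin (right). Ratios on the right are higher in the last than in the first exon of all 6 genes, and that of *4CL3* is -0.09 in the first and 1.72 in the last exon, while ratios on the left stay between -0.50 and 0.35.

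*The difference between both changes.* The change in *OsGRP3* OE minus the change in *OsGRP3* KD plants, each against NT plants of its cultivar, was tested directly. It was called for 5 of the 7 genes, against 34.0% of all genes tested. With no limit on its size, the adjusted p was under 0.05 for 6 of the 7 genes, against 51.1% of all genes. It was -2.86 on the log2 scale for Os02g0626100 (SE 0.123, adjusted p = 1.154e-06 by edgeR) and -2.74 for *CAD2* (SE 0.228, adjusted p = 2.405e-05). It was -1.91, -2.13 and -2.66 for Os02g0626400, Os02g0627100 and Os04g0518400. *4CL3* had a difference of -0.69 (adjusted p = 0.00859), under 2-fold, and Os05g0427400 of 1.05 (adjusted p = 0.209). The value of Os05g0427400 was 0.05 (adjusted p = 0.965) without the first *OsGRP3* OE library and 1.62 (adjusted p = 0.0227) without the second, and it was 0.69 without the first NT Nakdong library. Since the *OsGRP3* OE changes were small, the size of these differences came mostly from the comparison with NT Dongjin plants.

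*NT Dongjin and OsGRP3 KD against NT Nakdong.* The labels of both NT groups differ only in the cultivar. NT Dongjin differed from NT Nakdong plants in 6 of the 7 genes, against 38.9% of all genes tested. The log2 fold changes were -2.55 for Os02g0626100, -1.76 for Os02g0626400, -2.05 for Os02g0627100, -1.63 for Os04g0518400 and -2.04 for *CAD2*. Os05g0427400 was higher in NT Dongjin by 1.18 (adjusted p = 0.0405), a call that was lost when single libraries other than the second NT Nakdong library were left out (0.84 to 1.27), with first-exon counts (0.66) and with limma on log2(FPKM + 1) (0.87). Os05g0427400 has a single exon, so its first-exon counts equal its whole counts and only the fit over all genes differed in that setting. *4CL3* had a value of -0.19 (adjusted p = 0.198 by edgeR).

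In most of the 7 genes *OsGRP3* KD plants, although of cultivar Dongjin, were much closer to NT Nakdong than to NT Dongjin plants. None of the 7 genes was called between *OsGRP3* KD and NT Nakdong plants by edgeR, against 4.4% of all genes tested. *OsGRP3* itself was called, with a log2 fold change of -1.85 (adjusted p = 7.024e-05 by edgeR). In NT Dongjin minus NT Nakdong its log2 fold change was -1.59. At an unadjusted p under 0.05, 4 of the 7 genes passed, against 24.6% of all genes. *4CL3* averaged 167 ± 13.5 CPM in *OsGRP3* KD and 109 ± 10.6 CPM in NT Nakdong plants, which was 1.53-fold higher (log2 0.61, SE 0.120, adjusted p = 0.0182). This value was 0.52 to 0.73 when a library was left out, and its adjusted p then ran from 0.0296 to 0.158, so that it stayed under 0.05 in 1 of 4 cases. *CAD2* averaged 73.5 ± 10.2 CPM in *OsGRP3* KD and 48.9 ± 4.86 CPM in NT Nakdong plants (log2 0.59, adjusted p = 0.0533), and Os04g0518400 had a log2 value of 0.60 (adjusted p = 0.0908). This comparison shares NT Nakdong with the *OsGRP3* OE comparison and *OsGRP3* KD with the NT Dongjin comparison, and it crosses cultivars.

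*The PAL family.* The table describes 11 genes as PAL, of which 3 had no count in any library. PAL transcripts summed to 288 and 345 TPM in *OsGRP3* OE, against 341 and 377 TPM in NT Nakdong libraries. They summed to 421 and 347 TPM in *OsGRP3* KD, against 189 and 185 TPM in NT Dongjin libraries. The 5 PAL genes described above held 87.2% and 89.6% of this sum in *OsGRP3* OE and 89.4% and 90.0% in NT Nakdong libraries. They held 91.6% and 93.2% in *OsGRP3* KD and 53.4% and 49.9% in NT Dongjin libraries.

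Most of the rest in NT Dongjin libraries was a single gene, Os12g0520200 on chromosome 12. It had 17.5 and 10.9 TPM in *OsGRP3* KD and 72.5 and 78.0 TPM in NT Dongjin libraries, and it fell by 2.07 on the log2 scale (SE 0.160, adjusted p = 7.156e-06 by edgeR). It made up 38.4% and 42.1% of PAL TPM in NT Dongjin libraries, against 4.16% and 3.13% in *OsGRP3* KD libraries. Os04g0518100, the neighbour of Os04g0518400 on chromosome 4, had 12.6 to 20.4 TPM in all 8 libraries. PAL genes thus differed in opposite directions between *OsGRP3* KD and NT Dongjin plants.

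**Figure D4:**
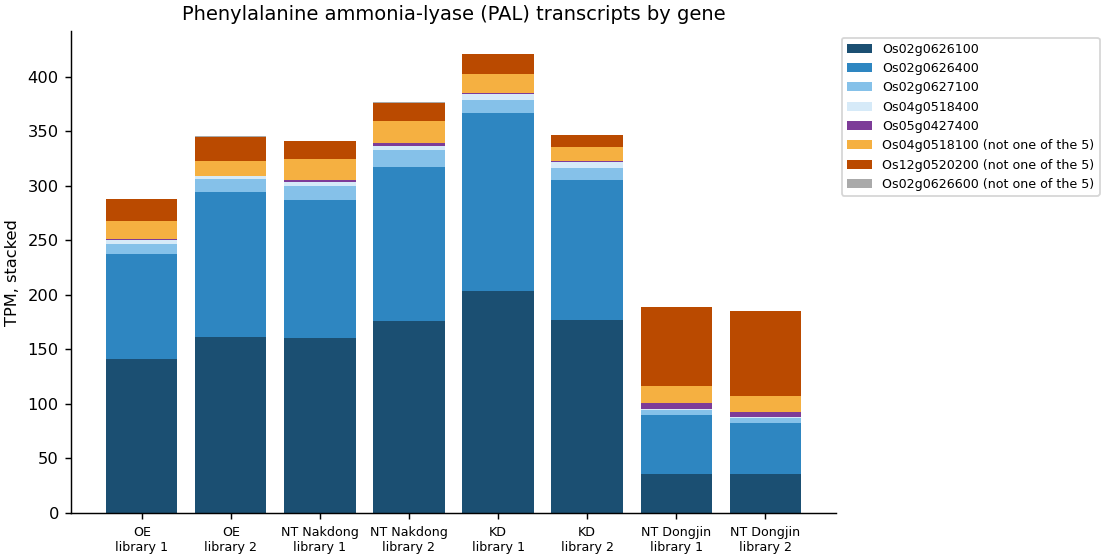
TPM of the PAL genes stacked for each library (y axis, linear from 0), with *OsGRP3* OE, NT Nakdong, *OsGRP3* KD and NT Dongjin libraries from left to right; 3 PAL genes with no counts are not drawn. Os02g0626100 and Os02g0626400 fill most of 6 bars, while in NT Dongjin the bars reach only 189 and 185 TPM and Os12g0520200 fills 38.4% and 42.1% of them.

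*The rest of the pathway.* Genes of the other steps were picked by words in their deposited descriptions, which gave 171 genes, 7 described here included, of which 105 were tested. No gene of the list rose and 2 fell between *OsGRP3* OE and NT Nakdong plants. That is 1.9% of the list, close to the 1.47% of all genes tested. The list's median log2 fold change was -0.04, against 0.00 over all genes tested. Both genes that fell, Os06g0176850 and Os06g0178650, are described as similar to leucoanthocyanidin dioxygenase, an enzyme of the anthocyanin branch. Os06g0176850 had 24.8 and 24.8 TPM in *OsGRP3* OE and 55.2 and 49.9 TPM in NT Nakdong libraries (log2 -1.02, adjusted p = 0.00416). Os06g0178650 had 27.6 and 28.3 TPM in *OsGRP3* OE and 61.8 and 56.5 TPM in NT Nakdong libraries (log2 -1.01, adjusted p = 0.00413).

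These genes had nearly proportional values in all libraries and may share reads, so they should be counted as a single signal. They were just past 2-fold, and each was under it without the first NT Nakdong library (-0.95 and -0.95) and without the second *OsGRP3* OE library (-0.98 and -0.99). None of the 64 tested genes outside the flavonoid branch was called in this comparison, where 1.47% of all genes tested were.

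Between *OsGRP3* KD and NT Dongjin plants, 46 of the 105 tested genes rose, 10 fell and 49 were not called. This was 53.3% of the list, against 37.6% of all genes tested, of which 23.8% rose and 13.8% fell. The list's median log2 fold change was 0.89, against 0.14 over all genes tested, and 0.80 with genes at 0 in NT Dongjin set to their lower bound. Outside the flavonoid branch 28 of 64 rose and 9 fell, and within it 18 of 41 rose and 1 fell. By step, 4 of 8 tested PAL genes rose and 2 fell. Of 11 genes described as 4CL or 4CL-like, 2 rose and 4 fell. Of 9 CCR genes 4 rose, of 9 CAD genes 3 rose, and of 15 laccase genes 9 rose and 3 fell. The single tested gene described as C3H, which hydroxylates the coumaroyl ring, rose. The only tested gene described as cinnamate 4-hydroxylase (C4H), the step between PAL and 4CL, had at most 94 counts and was not called.

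The largest rises outside the 7 genes included lignin-side and flavonoid genes. The laccase-7-like gene Os01g0850700 had 94.1 and 99.3 TPM in *OsGRP3* KD and 3.40 and 3.34 TPM in NT Dongjin libraries (log2 5.18, adjusted p = 5.947e-08). Chalcone isomerase Os03g0819600, an early flavonoid enzyme, had 380 and 360.5 TPM in *OsGRP3* KD and 13.8 and 14.8 TPM in NT Dongjin libraries (log2 5.04). Chalcone synthase Os11g0530600, the entry enzyme of that branch, rose by 3.13, and Os12g0115700, with a chalcone isomerase domain, by 3.44. The gene Os02g0697400, which has the same 4CL description as *4CL3*, rose by 4.00. The laccase-20-like gene Os11g0641800 had 1207 and 862 counts in *OsGRP3* KD and 0 and 5 counts in NT Dongjin libraries. The flavonol glucosyltransferase-like gene Os07g0148200 had 214 and 108 counts in *OsGRP3* KD and 0 and 4 counts in NT Dongjin libraries. Both were called as well, but with at most 5 counts in NT Dongjin they could pass the filter on low counts only through other groups. Their calls thus add little to these counts.

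Of the 105 tested genes, 12 had no count in either NT Dongjin library, and 10 of these were called. Such genes could pass the filter on low counts only through the other groups, so their calls add little to the zeros themselves. How many of all genes tested had no count in NT Dongjin was not computed. Against a floor of 3 counts over the group, the glycosyltransferase gene Os05g0527800 was at least 601-fold higher in *OsGRP3* KD plants, the laccase gene Os01g0842400 at least 212-fold and the CCR-like gene Os09g0262000 at least 109-fold. All 3 genes had 124 to 1073 counts in each of the other 6 libraries.

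Among list genes with a mean log2 CPM of at least 1, the largest falls outside the 7 genes were those of laccases and 4CL-like genes beside Os12g0520200. Below that level, the leucoanthocyanidin dioxygenase-like gene Os01g0832600 had 12 and 4 counts in *OsGRP3* KD and 72 and 114 counts in NT Dongjin libraries (log2 -3.45, adjusted p = 0.00348), and it is named here after its values were seen. Laccase gene Os03g0273200 had 1.92 and 1.53 TPM in *OsGRP3* KD and 13.9 and 13.3 TPM in NT Dongjin libraries (log2 -2.56), and laccases Os11g0708100 and Os01g0842500 fell by 1.83 and 1.62. The 4CL-like genes Os10g0578950, Os01g0901600, Os03g0152400 and Os04g0683700 fell by 1.68, 1.57, 1.26 and 1.14. Os04g0683700 was far more abundant than *4CL3*, with 387.5 and 360 TPM in *OsGRP3* KD and 1023 and 1075 TPM in NT Dongjin libraries. Laccase genes thus moved in both directions, as the PAL genes did. The 4CL-like genes named here as falling are all described as ligase-like. Os02g0697400 and *4CL3*, both higher in *OsGRP3* KD plants, are described as similar to a 4CL itself.

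**Figure D5:**
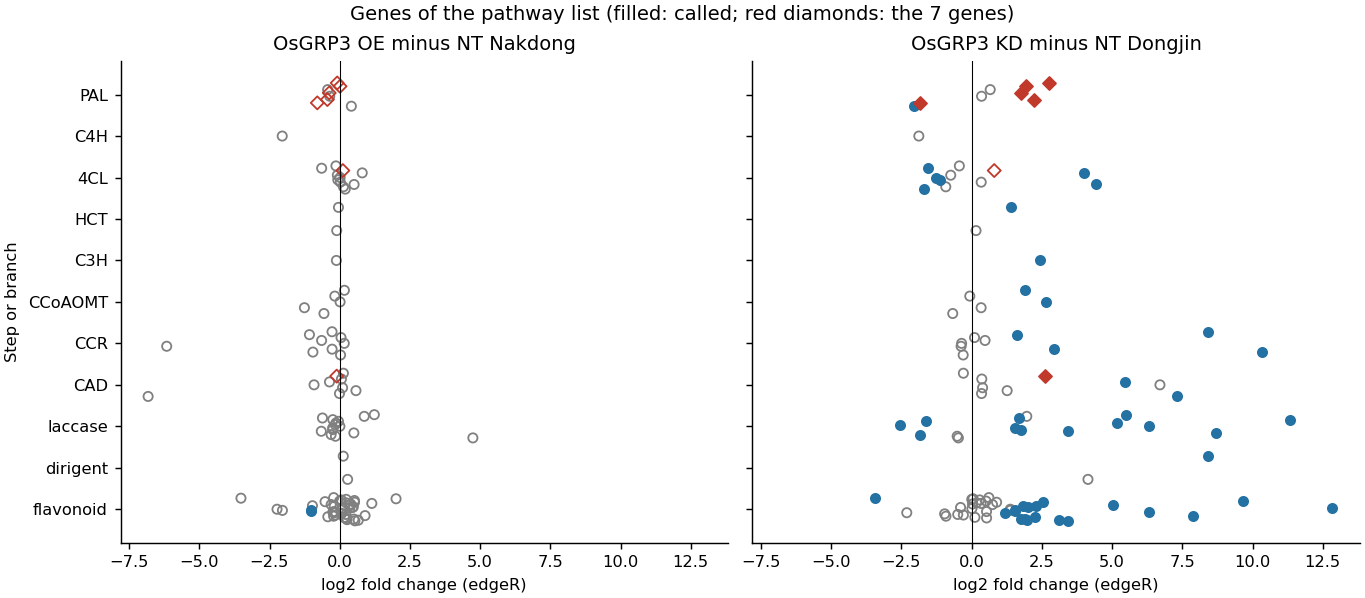
Log2 fold change by edgeR (x axis) of tested genes of the pathway list, by step from PAL to the flavonoid branch (y axis), in *OsGRP3* OE minus NT Nakdong (left) and *OsGRP3* KD minus NT Dongjin (right); filled symbols were called, red diamonds are the 7 genes, and values of genes with no count in a group depend on the fit. On the left 2 genes are called, both below 0, which is 1.9% of the list against 1.47% of all genes tested. Called genes on the right lie on both sides of 0 and more of them above it.

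Against NT Nakdong plants, 2 of the 105 genes rose and 5 fell in *OsGRP3* KD plants, none of them among the 7 genes. This was 6.67% of the list, against 4.4% of all genes tested. This count of 7 called genes was 0 without the second NT Nakdong library, 1 without the first and 2 without the second *OsGRP3* KD library.

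*Other transcripts that moved with NT Dongjin.* In leaves, lignin follows the cells that build secondary walls, so the 3 secondary wall cellulose synthase genes were read beside the 7 genes. They summed to 87.4 and 85.7 TPM in *OsGRP3* OE and 91.8 and 94.5 TPM in NT Nakdong libraries. They summed to 80.5 and 64.3 TPM in *OsGRP3* KD and 20.5 and 18.9 TPM in NT Dongjin libraries. All 3 genes rose (median log2 1.76), where 23.8% of all genes tested rose. With whole leaves, fewer cells of a type and less RNA per cell cannot be told apart.

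The 3 primary wall cellulose synthase genes summed to 294 and 236 TPM in *OsGRP3* KD and 38.7 and 36.3 TPM in NT Dongjin libraries, and all 3 rose. Of 25 tested expansin genes, which loosen the walls of growing cells, 18 rose and 1 fell, where 23.8% of all genes rose and 13.8% fell. They had sums of 762 and 530.2 TPM in *OsGRP3* KD and 82.0 and 75.8 TPM in NT Dongjin libraries. The leaf marker Rubisco small subunit was high in all libraries and summed to 55180 and 63860 TPM in *OsGRP3* KD and 19180 and 18450 TPM in NT Dongjin libraries. Chlorophyll a/b-binding genes summed to 70990 and 74910 TPM in *OsGRP3* KD and 51500 and 51920 TPM in NT Dongjin libraries.

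Of 7 clock genes, 1 rose, 1 fell and 5 were not called, with log2 fold changes between -0.10 and 0.95 for these 5 genes. The morning-phased *LHY* (Os08g0157600) had 113 and 110.1 TPM in *OsGRP3* KD and 1807 and 1794 TPM in NT Dongjin libraries. The evening-phased *PRR1* (Os02g0618200) had 13.8 and 14.2 TPM in *OsGRP3* KD and 1.234 and 1.496 TPM in NT Dongjin libraries. Of 18 tested TIFY genes, a family that responds to jasmonate and wounding, 10 rose and 1 fell, against the same 23.8% and 13.8% of all genes. No gene of these lists was called between *OsGRP3* OE and NT Nakdong plants. The part of growth stage, time of day or handling in the values of the 7 genes was not tested.

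*Likeness among the 7 genes and to other genes.* Over the 8 libraries, Os02g0626100 had a Pearson r of 0.997 with Os02g0626400, 0.974 with Os02g0627100 and 0.974 with *CAD2* in log2 CPM. These values rest on the NT Dongjin libraries. In the other 6 libraries, r was 0.793 with Os02g0626400, 0.219 with Os02g0627100 and 0.803 with *CAD2*. The pair with the highest r among those 6 libraries was *4CL3* and *CAD2*, at 0.953, and r was 0.793 for this pair over all 8. Os05g0427400 had a negative r with each of the other 6 genes over 8 libraries, between -0.804 and -0.430. The points share libraries, depth and group differences, and r is given as a description only.

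Of 17575 other genes, those most like Os02g0626100 were the cytochrome P450 gene Os06g0639800 (r 0.999), the thiazole biosynthesis gene Os07g0529600 (r 0.999) and the cellulose synthase-like gene Os02g0192500 (r 0.9985). Each of them had its lowest levels in NT Dongjin, and Os07g0529600 had 1821 and 1786 TPM in *OsGRP3* KD and 37.1 and 43.3 TPM in NT Dongjin libraries. For Os02g0626400 the 3 genes were Os04g0359100, described as an alcohol dehydrogenase, Os10g0478000 and the RD22-like gene Os01g0733500 (r 0.998 to 0.999). For Os02g0627100 they were Os03g0314500, the phosphoethanolamine methyltransferase-like gene Os05g0548900 and Os08g0566700 (r 0.992 to 0.997).

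For Os04g0518400 they were Os01g0673600, Os04g0682100 and Os11g0549655 (r 0.985 to 0.986), and for Os05g0427400 they were Os12g0607100, Os10g0162834 and Os05g0566500 (r 0.966 to 0.985). *4CL3* was most like Os05g0142200, the reductase-like gene Os03g0237100 and the WRKY gene Os05g0343400 (r 0.976 to 0.981). In the 6 libraries without NT Dongjin, the r of *4CL3* with these genes was 0.970 to 0.997, and the r of the PAL genes with theirs was 0.864 to 0.976. *CAD2* was most like the kinase-related gene Os10g0431900, Os07g0618000 and the SAUR gene Os02g0769100 (r 0.995 to 0.998).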

How the data were processed

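Estimated counts per gene were deposited by the authors as whole numbers and were made from StringTie coverage times transcript length divided by a read length of 101, rounded up and summed over transcripts. In every library at least 99.9947% of genes had such a value. The analysis had been designed for read counts, whose place they took. FPKM and TPM values and the coverage of transcripts and exons were made by the authors with StringTie 1.3.4d from HISAT alignments to IRGSP-1.0. The labels name a stranded kit and list HISAT2 and Bowtie2, and the study's methods name TopHat. Log2 values with FPKM were computed from the deposited FPKM values.

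Counts were filtered by filterByExpr, TMM-normalized and fitted with edgeR 4.0.16 (R 4.3.3) over all 8 libraries, each of the 4 groups having its own mean. CPM uses TMM-scaled library sizes. SE is the log2 fold change divided by the root of the F statistic. Alternatives used DESeq2 1.42.0 and limma 3.58.1. Tables and plots were made with Python 3.11.15, pandas 2.3.3 and matplotlib 3.10.9. In simulated data for *OsGRP3* OE minus NT Nakdong (23894 genes), 33% of 2-fold and 94% of 4-fold changes were called, and for *OsGRP3* KD minus NT Dongjin (23833 genes) 42% and 90%. Each simulation changed 200 genes and left all others equal. In the real data 37.6% of genes were called in *OsGRP3* KD minus NT Dongjin, so its rates may differ there. Depth of 25836946 to 38940899 counts leaves genes under about 100 counts with a wide counting error, and bounds cover counting error only.

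The members and lists were chosen with earlier results of these data known. Beside the 7 genes and *OsGRP3*, the text names up to 10 pathway genes that rose and 10 that fell most among those called, with mean log2 CPM of at least 1 and libraries that do not overlap, and the 3 genes most like each member. Os02g0626600 and Os04g0518100 were named as neighbours, and Os01g0820000 was counted for C4H. Pathway genes depend on their deposited descriptions: no description matched caffeoyl shikimate esterase or ferulate 5-hydroxylase. Sequences of the 7 genes were not used here. The result of a single pathway step is not reported here and is not drawn.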

Additional observations from a re-analysis of the deposited data

Results flagged for a closer look

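The change in *OsGRP3* OE minus that in *OsGRP3* KD plants passed an adjusted p under 0.05 for 6 of the 7 genes by edgeR, over all genes tested. It was -2.86 for PAL Os02g0626100, -2.13 for PAL Os02g0627100, -1.91 for PAL Os02g0626400, -2.66 for PAL Os04g0518400, -0.69 for *4CL3* and -2.74 for *CAD2*, all on the log2 scale. This direct test of the difference between both cultivars' contrasts passed in 51.1% of all genes. The NT Dongjin libraries enter each of these values and stood apart in coverage along transcripts, and their part cannot be told apart from the knock-down.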

How the results depend on the processing

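Among the 7 genes, calls in *OsGRP3* KD minus NT Dongjin were 6 in the main analysis and 7 with last-exon counts, and no gene was called in *OsGRP3* OE minus NT Nakdong under any alternative. First-exon counts, chosen after seeing the data, gave 3 calls against 5 for the difference between both changes and 32 against 54 in the pathway list. For all genes they gave 217 calls against 359 in *OsGRP3* OE minus NT Nakdong and 521 against 1073 in *OsGRP3* KD minus NT Nakdong. These are counts from separate fits. At least 10 counts in every library, which tests fewer genes, gave 186 and 595 in these comparisons and 6300 against 9490 in NT Dongjin minus NT Nakdong. An unadjusted p gave 1058 and 2075, and 6 of the pathway list in place of 2 and 12 in place of 7. For *OsGRP3* KD minus NT Nakdong the list gave 2 with last-exon counts, 1 with first-exon counts and 4 with limma on log2(FPKM + 1) without a filter. Leaving out a library gave 0 to 4 list genes and 202 to 503 genes in all for *OsGRP3* OE minus NT Nakdong, and 0 to 9 and 320 to 1212 for *OsGRP3* KD minus NT Nakdong.

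Values that changed sign were those of genes not called. In *OsGRP3* OE minus NT Nakdong, Os02g0626400 was -0.02 with last-exon counts, -0.67 with first-exon counts, -0.21 with limma in all 3 settings and -0.07 without the first NT Nakdong library. Os04g0518400 was 0.30 with first-exon counts, *4CL3* ran from -0.06 to 0.26 and *CAD2* from -0.35 to 0.10 when an *OsGRP3* OE library was left out. With first-exon counts *4CL3* was 0.16 in NT Dongjin minus NT Nakdong, Os02g0627100 was 0.01 in *OsGRP3* KD minus NT Nakdong and *OsGRP3* was 0.03 in *OsGRP3* KD minus NT Dongjin. First-exon counts of Os02g0626400 depend on how reads were split between its transcripts. The cause of these changes of sign was not tested. With first-exon counts, Os02g0627100 (-1.39) and Os04g0518400 (-1.68) lost their call for the difference and Os04g0518400 (-1.28) that in NT Dongjin minus NT Nakdong.

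Same-numbered replicates did not deviate together (r -0.0863 in Nakdong and -0.039 in Dongjin over 12340 genes), so they share only a number. With the replicate block, 0, 6 and 5 of the 7 genes were called in *OsGRP3* OE minus NT Nakdong, *OsGRP3* KD minus NT Dongjin and the difference, with 305, 8846 and 7871 genes in all.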
